A study of Mus musculus with 6 samples.

Results

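Pard3b lies on mouse chromosome 1, and the chromatin contacts of a 1.3 Mb stretch around it were followed in P19 cells, an embryonal carcinoma line that enters neuronal differentiation on exposure to all-trans retinoic acid (ATRA). The stretch comprised every listed pair of 5 kb bins on chromosome 1 with at least 1 bin centred between 61500000 and 62800000 (mm9). It held 2403 pairs, of 245,926 on chromosome 1 and 3,654,014 in all. Both bins lay inside the stretch in 1613 pairs, and 1 bin in the other 790. The region was selected on its numbers of listed pairs, because 2 of its bins gained pairs after 48 h of treatment. Values at 48 h against the earlier time points are therefore given as description, without a test. At the limits of the stretch, the first bin inside, centred on 61502500, had 5, 2 and 5 listed interactions untreated, at 6 h and at 48 h, and the last bin outside before it 5, 4 and 6. The last bin inside, centred on 62797500, had 0 at each time, and the next bin outside 8, 5 and 5.

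Pard3b encodes a scaffold protein with PDZ domains, a paralogue of Pard3, and is found at cell junctions. Pard3 is a core member of the PAR complex, which sets up apical and basal polarity in epithelia and in neural progenitors. Hi-C records which stretches of DNA lie close together: fixed chromatin is digested, neighbouring ends are ligated, and each junction is counted by paired sequencing. A bin paired with many others appears in such data as a stripe of contacts along its chromosome. The approximate span of Pard3b given with the region, 61.7 to 62.7 Mb, fills most of the stretch. In RefSeq (GRCm38.p6) the gene order around it is Cd28, Ctla4 and Icos, which encode T cell co-receptors, then Pard3b, then Nrp2, a semaphorin and VEGF co-receptor, Ino80d, a subunit of a chromatin remodeller, and Ndufs1, a subunit of respiratory complex I. Exons, introns and promoters were not placed on the bins, because no mm9 annotation was used here.

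There were 3 groups of 2 libraries: untreated P19 cells (T0), and P19 cells given 1e-06 M ATRA for 6 h (T6) or for 48 h (T48), all grown as monolayers on gelatine-coated plates. Untreated cells kept for 6 h or 48 h were not among the samples, so ATRA and time in culture cannot be told apart. The labels do not state that the 2 libraries of a group came from separate cultures. The spread that the p-values rest on may therefore be technical. Hi-C gives no expression values, so the labelled cell type was not checked against its markers, and the level of Pard3b RNA was not measured.

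Each value was taken as a raw count of read pairs for a pair of bins that was listed as significant at a time point, in both of its replicates. A pair with a count of 0 was not listed at that time point, which is no measurement of absence. A number of listed pairs is 1 value per time point and has no replicate error. The listed counts summed to between 23,003,295 and 50,154,643 per library, and those of the region to between 11,531 and 28,949. The median count of a listed pair in the region was 6 to 10 read pairs, which makes single pairs imprecise. In 1 bin of the region, at 62.19 Mb, the 2 T0 libraries stood apart. Its count ratio of T48 over T0 and its window's ratio of T6 over T0 are also given without each of them. Its numbers of listed pairs have no such version. In 2 further bins, at 61.93 and 62.62 Mb, the 2 T48 libraries stood apart.

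Across the region the T0 list held 1058 interactions, the T6 list 847 and the T48 list 1508. The T6 list was 0.801 times as long as the T0 list, against 0.844 times on chromosome 1 and 0.846 times over all chromosomes. The T48 list was 1.43 times as long as the T0 list, against 0.860 and 0.955 times. Of the 900 pairs listed at T48 alone, 297 touched 3 bins, which each had few interactions at T0 and T6 and many at T48. Without these 3 bins the region listed 1032, 834 and 1183 interactions, and the T48 list was 1.15 times as long as the T0 list.

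The 3 bins are called late bins here. The 61.74 Mb bin (chr1:61740001-61745000) went from 6 listed interactions at T0 to 3 at T6 and 101 at T48. The 62.04 Mb bin (chr1:62035001-62040000) had 9, 6 and 132. These are the bins whose gain chose the region. The 62.19 Mb bin (chr1:62185001-62190000) had 11, 4 and 95, the third largest gain in the region. With 0.5 added to each number and the lists scaled to equal length, the log2 ratios of T48 over T0 were 4.03, 3.87 and 3.12. Those of T6 over T0 were -0.65, -0.31 and -1.11, so in all 3 bins the increase in listed pairs lay after 6 h.

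Another 3 bins had many interactions at every time point and are called constant bins. They were chosen after their values were seen, as the bins with at least 75 interactions at each time point. The 62.53 Mb bin (chr1:62525001-62530000) went from 105 interactions at T0 to 94 at T6 and 117 at T48. The 62.61 Mb bin (chr1:62610001-62615000) had 89, 75 and 111. The 62.69 Mb bin (chr1:62685001-62690000) had 88, 81 and 117. The late bins lay in the part of the Pard3b span with lower coordinates and the constant bins near its end with higher coordinates. At T48 the 6 bins ranged from 95 to 132 interactions, and the 2 kinds overlapped in number.

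**Figure D1:**
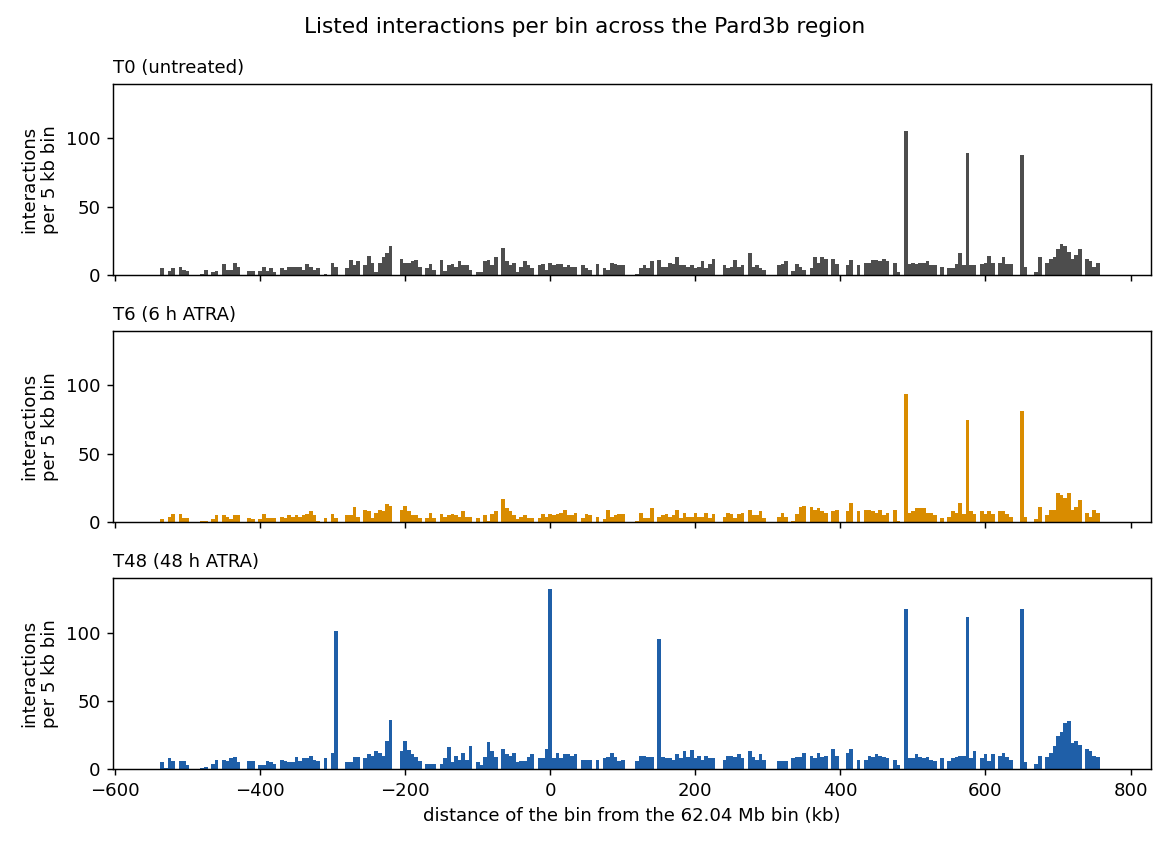
Listed interactions per 5 kb bin (vertical axis) across the region at T0, T6 and T48, by distance of the bin from the 62.04 Mb bin in kb (horizontal axis). The 3 constant bins stand out in all 3 panels and the 3 late bins at T48 alone, where the 62.04 Mb bin reaches 132 interactions, while the other bins stay at or below 36.

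Each of the 6 was a single bin. The bins 5 kb on either side of the late bins had 0 to 15 interactions at any time point, and those beside the constant bins 0 to 10. At T48 the bins next to the 62.04 Mb bin had 15 and 8 interactions against its own 132. The bin 5 kb above the 61.74 Mb bin and the bin 5 kb below the 62.19 Mb bin had no listed pair at any time point, as had 55 of the 260 bins of the region. Mappability of the bins was not used here, and its part in these single-bin numbers was not tested. The number of interactions in the median bin of the region was 6, 5 and 8 in the order T0, T6 and T48, against 9, 8 and 9 over all chromosomes. Apart from the late and constant bins the highest number at any time point was 36.

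Bins of both kinds were rare in the genome. Among the 262,315 bins that had at least 20 interactions in the 3 lists together, 17 (0.00648%) had at most 15 at T0 and at least 75 at T48, and 3 of these were the late bins. Of the 17, 13 were on chromosome 1 and 4 on chromosome 6. At least 75 interactions at every time point were found in 138 bins (0.0526%), 86 of them on chromosome 1 and 22 on chromosome 6, and 3 of these were the constant bins. Of the 278,294 bins with a mean count of at least 50 in pairs listed at all 3 time points, chromosome 1 held 21,740. Both kinds were thus more frequent on chromosome 1 than their shares of the genome show. The opposite course, at least 75 interactions at T0 and at most 15 at T48, was found in 52 bins of the genome and 0 of the region. The late bins were picked for this course, so their place in these counts is a description.

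At T48 the late bins were paired with bins over more than 1 Mb. The 61.74 Mb bin had 68 partners at lower and 33 at higher coordinates, at a median distance of 275 kb, reaching 755 kb down and 1260 kb up. More of its partners thus lay on the side of Icos in the RefSeq gene order. The 62.04 Mb bin had 43 partners at lower and 89 at higher coordinates, at a median distance of 365 kb, reaching 950 and 1000 kb. The 62.19 Mb bin had 39 and 56, at a median distance of 215 kb, reaching 975 and 850 kb. Partners of these 2 bins lay more often on the side of the constant bins.

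Within 500 kb, the late bins were paired with 39.5%, 38.5% and 37.5% of all 5 kb bins at T48, in the order of their coordinates. At T0 the shares were 3.0%, 4.0% and 5.0%. The constant bins were paired with 46.0%, 42.0% and 39.0% of such bins at T48. Of the T48 pairs, 95 of 101, 121 of 132 and 84 of 95 were listed at T48 alone. The 62.04 and 62.19 Mb bins, 150 kb apart, shared 63 partners, which is 47.7% of the partners of the first and 66.3% of those of the second. The 61.74 and 62.04 Mb bins shared 33 (32.7% and 25%), and the 61.74 and 62.19 Mb bins shared 15 (14.9% and 15.8%).

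**Figure D2:**
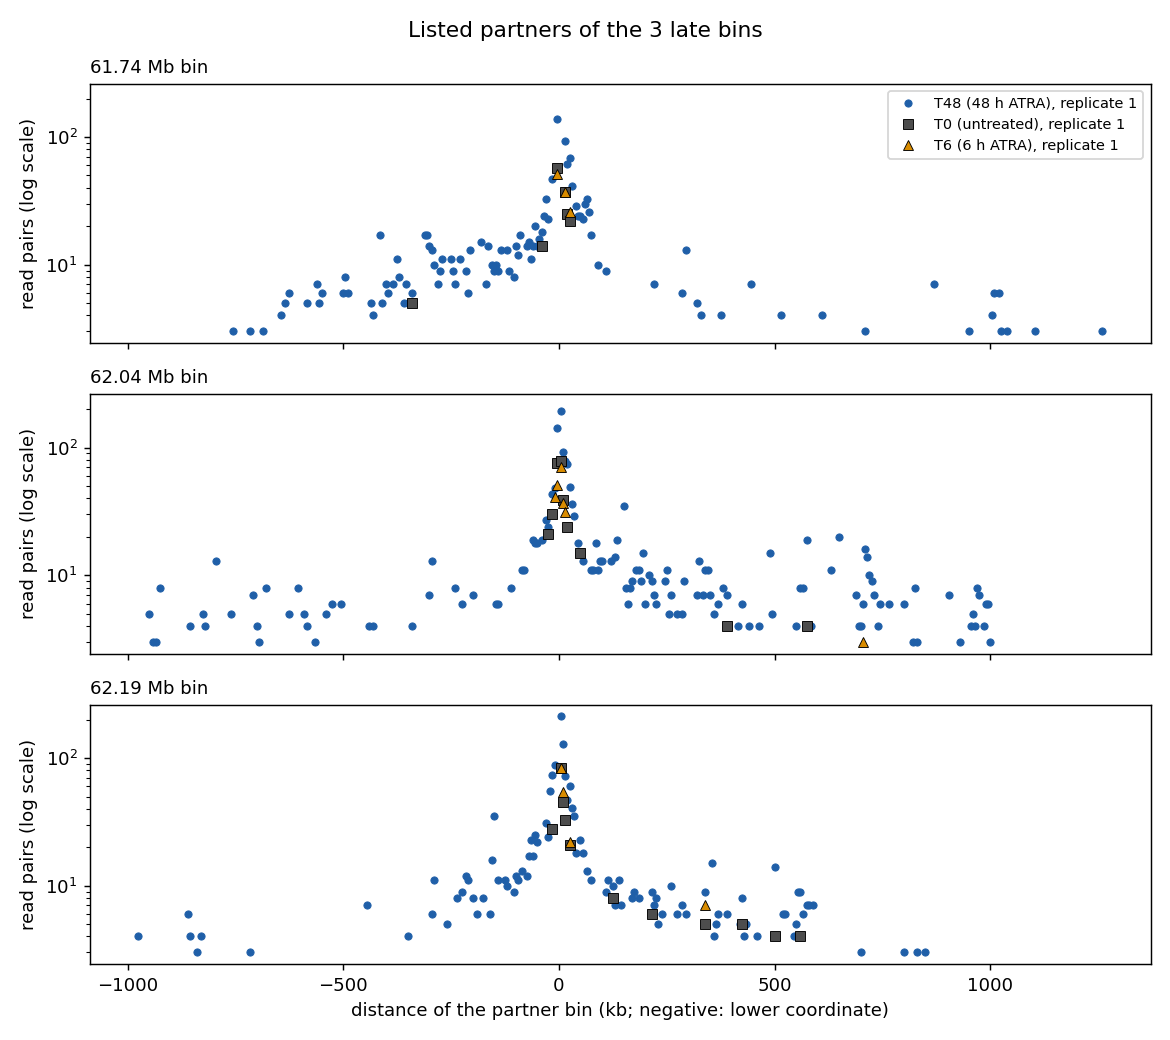
Listed partners of the 61.74, 62.04 and 62.19 Mb bins, with the distance of the partner in kb (horizontal axis, negative for lower coordinates) and its count of read pairs in replicate 1 (vertical axis, log scale), at T0, T6 and T48. T0 and T6 partners are few and mostly near the bin, whereas the T48 partners of the 62.04 Mb bin reach 950 kb down and 1000 kb up.

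The T48 pairs of the late bins were partly close to the limit of what was listed. Set against the lowest count listed for the same distance and library, taking the lower of the 2 replicates, the median pair of the 3 bins was at 1.25, 1.33 and 1.25 times that lowest count. Pairs of the region that touched neither late nor constant bins were at 1.04 times. At least 1.5 times was reached by 39, 44 and 28 T48 pairs of the late bins. In that stricter list the same bins had 0, 1 and 2 pairs at T0 and 0, 0 and 0 at T6. At least 2 times the lowest count was reached by 15, 20 and 13 pairs at T48 against 0, 0 and 1 at T0. The difference in number was thus also present in the stricter lists. The late bins were chosen on the full lists that these are drawn from, so this is a description. The lowest count listed was 3 read pairs, so at long distances the stricter limits lie only a few read pairs higher.

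The multiples were lower at longer distances, for late and constant bins alike. At T48, pairs of late bins under 20 kb were at a median of 2.97 times the lowest listed count (14 pairs), those of 20 to 100 kb at 1.54 times (64 pairs), those of 100 to 500 kb at 1.25 times (148 pairs), and those from 500 kb at 1.00 times (99 pairs). For constant bins the medians were 3.56, 1.8, 1.27 and 1.00. For the other bins of the region they were 1.32, 1.00, 1.00 and 1.00. At T0 the late bins had 10 pairs under 20 kb, at a median of 1.29 times, close to the 1.25 times of the other bins at T0.

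Among the 5 T48 pairs of the 62.04 Mb bin with the highest multiples, some joined it to another of the 6 bins. Those of the 61.74 Mb bin joined it to no other of the 6. Of those of the 62.19 Mb bin, only its pair with the 62.04 Mb bin did. The highest multiples of the 61.74 and 62.19 Mb bins, 3.60 and 4.44 times, were with bins 5 kb away. The 62.04 and 62.69 Mb bins, 650 kb apart, had 20 and 13 read pairs in the T48 libraries, replicate 1 first, which is 4.33 times the lowest listed. They were not listed at T0 or T6. Of the 145 pairs of chromosome 1 listed at T48 at that distance, 0 had a higher summed count. The 62.04 and 62.19 Mb bins had 35 and 21 read pairs at T48, 4.20 times the lowest listed, and were not listed before. At their distance, 14 of 789 pairs had a higher summed count. Both pairs were named for their high T48 multiples, so these ranks partly follow from that choice and are a description. The 62.04 and 62.61 Mb bins, 575 kb apart, had 4 and 4 read pairs at T0 and 19 and 11 at T48, and were not listed at T6.

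All 3 pairs among the late bins were listed at T48, and 0 at T0 and T6. Of the 9 possible pairs of a late with a constant bin, the T0 list held 4, the T6 list 1 and the T48 list 7. The late bins were picked for few partners at T0 and many at T48, so both counts partly follow from that choice. Within 500 kb each late bin was paired with 37.5% to 39.5% of all bins at T48, and with 3.0% to 5.0% at T0. The constant bins were paired with 39.0%, 36.5% and 31.5% of such bins already at T0. Several of the 9 pairs are longer than 500 kb, so these shares do not cover them. The 3 pairs among the constant bins were listed throughout. The 61.74 Mb bin had 13 and 7 read pairs at T48 with the 62.04 Mb bin at 295 kb, where 37 of 371 pairs of chromosome 1 had more, and 7 and 3 with the 62.19 Mb bin at 445 kb, where 104 of 336 had more. Of the constant bins it was listed with the 62.61 Mb bin alone, at 870 kb, with 7 and 6 read pairs.

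Outside the region, 1 further late bin lay 415 kb below the 61.74 Mb bin. This 61.33 Mb bin went from 3 interactions at T0 to 5 at T6 and 98 at T48. It was listed with all 3 late bins at T48 and with none at T0 or T6. Its choice by the same limits as theirs partly sets this. The counts were 17 and 7 with the 61.74 Mb bin, 7 and 6 with the 62.04 Mb bin at 710 kb, and 6 and 3 with the 62.19 Mb bin at 860 kb. The strongest long pairs of the 61.74 Mb bin also pointed to lower coordinates, with 17 and 12 read pairs at T48 with the 61.44 Mb bin and 11 and 8 with the 61.37 Mb bin, none of them listed at T0 or T6.

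Counts, unlike numbers of listed pairs, can be compared between replicates, in the pairs that were listed at all 3 time points. The 61.74 and 62.04 Mb bins had 3 such pairs each and the 62.19 Mb bin 4, nearly all within 25 kb. The pair of the 61.74 Mb bin with the bin 5 kb below it had 57 and 35 read pairs at T0, 51 and 26 at T6, then 138 and 90 at T48. The pair of the 62.04 Mb bin with the bin 5 kb above it had 78 and 34, 71 and 25, and 195 and 86. These are raw counts, not scaled to the depth of the libraries. In both pairs the T48 library was the highest within each replicate number.

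Summed per bin and expressed as CPM (counts scaled to a common library total, here over all such bin counts), the 61.74 Mb bin had 2.00 and 2.00 CPM at T0, 2.17 and 1.99 at T6, then 5.85 and 4.83 at T48. The means were 2.00 ± 0.00419, 2.08 ± 0.124 and 5.34 ± 0.725 (SD, n = 2). T48 over T0 gave a log2 ratio of 1.42 (standard error 0.14). The 62.04 Mb bin had 3.32 and 3.13 CPM at T0, 3.03 and 2.74 at T6, then 8.37 and 7.25 at T48. Its means were 3.23 ± 0.139, 2.88 ± 0.201 and 7.81 ± 0.787 (SD, n = 2), with a log2 ratio of T48 over T0 of 1.28 (standard error 0.11). In both bins the T48 libraries lay above all 4 others and did not overlap with them. A T48 value at least 2 times the T0 value in both replicates was found in 323 of 278,294 bins with a mean count of at least 50 (0.116%), and in 2 of the 162 such bins of the region, these same 2. For T6 over T0 it was found in 59 bins of the genome (0.0212%) and in 0 of the region. The 61.74 and 62.04 Mb bins were chosen for their gain of listed pairs at T48. Their place among the 323 bins is therefore a description, not separate support.

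The 62.19 Mb bin was different. It had 2.65 CPM in T0 replicate 1 and 6.65 in T0 replicate 2, then 3.18 and 2.63 at T6 and 7.98 and 6.19 at T48. Its T0 replicate 2 value was in the range of T48, while T0 replicate 1 was in the range of T6. The pair with the bin 5 kb above it had 83 and 108 read pairs at T0, 84 and 31 at T6, then 212 and 111 at T48. Over all its 11 T0 pairs, 8 had a higher count in replicate 2, and replicate 2 held 1.34 times the count of replicate 1, against 0.591 times for the whole libraries. In the other 5 late and constant bins that T0 ratio was 0.557 to 0.617.

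The log2 ratio of T48 over T0 of the 62.19 Mb bin was 0.68 (standard error 0.37) with all libraries, 1.43 without T0 replicate 2 and 0.10 without T0 replicate 1. Within replicate numbers it was 1.59 for replicate 1 and -0.10 for replicate 2. A 2-fold or larger difference between the T0 replicates, in either direction, was found in 6424 of 278,294 bins (2.31%), and in the region in this bin alone. What made the T0 libraries differ there was not tested. Between the T48 replicates such a difference was found in 5236 bins of the genome (1.88%) and 2 of the region. The bin at chr1:61925001-61930000 had 1.79 and 4.97 CPM at T48 against 1.53 and 2.16 at T0, and the bin at chr1:62620001-62625000 had 4.51 and 12.4 against 4.65 and 4.89, so in both T48 replicate 2 stood apart.

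**Figure D3:**
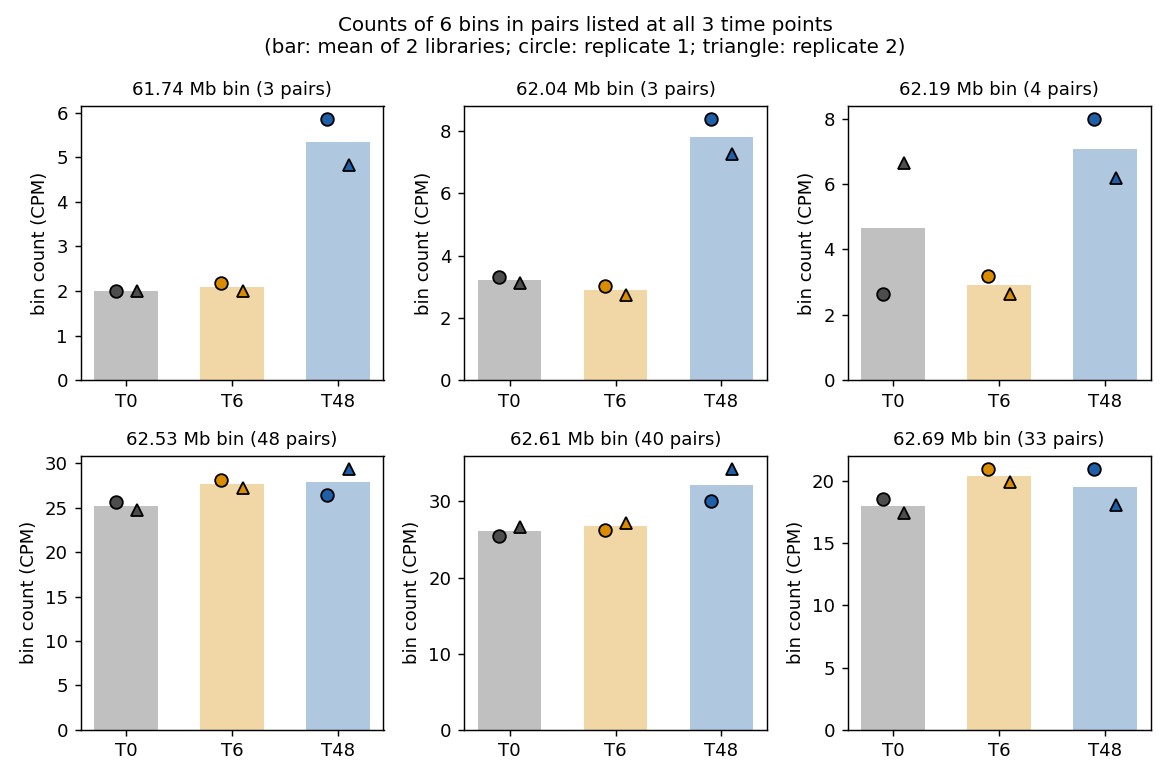
Counts of the 3 late bins (top) and the 3 constant bins (bottom) in pairs listed at all 3 time points, in CPM (vertical axis), at T0, T6 and T48. Bars are means of 2 libraries and points are single libraries. The T48 libraries of the 61.74 and 62.04 Mb bins lie above all others, whereas T0 replicate 2 of the 62.19 Mb bin, at 6.65 CPM, lies between the T48 libraries.

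The constant bins had more pairs listed throughout, 48, 40 and 33, and higher counts. The 62.53 Mb bin had 25.7 and 24.8 CPM at T0, 28.1 and 27.2 at T6, then 26.4 and 29.4 at T48. The 62.61 Mb bin had 25.4 and 26.7 at T0, 26.3 and 27.2 at T6, then 30.1 and 34.3 at T48, so its T48 libraries were the highest. The 62.69 Mb bin had 18.6 and 17.4, 21.0 and 19.9, and 21.0 and 18.1. Their log2 ratios of T48 over T0 were 0.14, 0.31 and 0.12 (standard errors 0.14, 0.15 and 0.14). The counts were used as deposited, and whether the list was corrected for how often a bin is sequenced in all is not given. Without such a value, more contact of a bin and more copies or better recovery of its DNA cannot be told apart.

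The test of T6 over T0 asked whether contact strength had changed by 6 h. The region was chosen on pairs gained at T48, and the late bins have at most 15 interactions at T0 and at least 75 at T48. For these bins the contrast is therefore not independent of the choice. Over all chromosomes edgeR called 0 of 496,203 pairs listed throughout (0%) at an adjusted p of 0.05, and 0 of the 279 pairs of the region that passed the filter on low counts, of 324 listed throughout. At an unadjusted p under 0.05 there were 7 pairs of the region (2.51%), against 3.17% in the genome. DESeq2 called 0 pairs of the region, with 0 at an unadjusted p under 0.05. Of the 279 pairs, 165 were higher and 114 lower at T6, with log2 ratios from -0.92 to 1.06 and a median of 0.06, against a median of -0.002 over all pairs tested.

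The 5 pairs of the region with the lowest p in that test all touched a constant bin. Before the filter, the 3 constant bins held 48, 40 and 33 of the region's 324 pairs listed throughout. Many of the pairs tested thus touched one, and whether 5 of 5 exceeds that share was not tested. The 62.69 Mb bin and a bin 40 kb above it had 17 and 13 read pairs at T0, 38 and 18 at T6, then 42 and 21 at T48, with a T6 over T0 log2 ratio of 1.06 (edgeR unadjusted p = 0.00361, adjusted p = 1). The 62.61 and 62.69 Mb bins, 75 kb apart, had 41 and 23, 49 and 35, and 63 and 37, with a log2 ratio of 0.59 (edgeR unadjusted p = 0.0227, adjusted p = 1). The 62.61 Mb bin and a bin 55 kb below it had 25 and 22, 15 and 7, and 20 and 12, with a log2 ratio of -0.92 (edgeR unadjusted p = 0.0152, adjusted p = 1). As raw counts, not scaled to the depth of the libraries, the T6 and T0 values overlapped in the second of these pairs and not in the other two.

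The late bins gave no call at 6 h. The T6 over T0 log2 ratio of the summed bin counts was 0.07 (standard error 0.15) in the 61.74 Mb bin, -0.16 (0.12) in the 62.04 Mb bin and -0.59 (0.40) in the 62.19 Mb bin, each with an edgeR adjusted p of 1. For the 62.19 Mb bin the ratio was 0.26 within replicate 1 and -1.34 within replicate 2, of opposite sign. In the constant bins the ratios were 0.13, 0.04 and 0.19 (standard errors 0.14, 0.15 and 0.14), again each with an edgeR adjusted p of 1. Single 5 kb bins were added after the data were seen, and edgeR called 0 of 186 in the region and 0 of 310,746 in the genome (0%). At an unadjusted p under 0.05 it gave 1 bin of the region (0.538%), against 2.47% in the genome. That bin, at chr1:61835001-61840000, had 2.86 and 3.25 CPM at T0 and 3.75 and 3.85 at T6, with a log2 ratio of 0.32 (standard error 0.12).

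Windows of 50 kb gave more reads per value. In T6 over T0 edgeR called 0 of the 26 windows of the region and 0 of 49,387 in the genome (0%), and at an unadjusted p under 0.05 it gave 1 window of the region and 1.73% of the genome. That window, which starts at 62.65 Mb and holds the 62.69 Mb bin, had 40.5 and 38.5 CPM at T0 and 44.3 and 43.2 at T6, with a log2 ratio of 0.15 (edgeR unadjusted p = 0.0482, adjusted p = 1). DESeq2 called 0 of the 26. The median log2 ratio of the 26 was 0.02. The highest was 0.16 (standard error 0.066, edgeR adjusted p = 1), in the window that starts at 61.65 Mb, with 22.9 and 23.3 CPM at T0 and 24.6 and 26.9 at T6. The lowest was -0.24 (standard error 0.14, edgeR adjusted p = 1), in the window that starts at 61.55 Mb, with 7.30 and 7.15 CPM at T0 and 6.65 and 5.55 at T6.

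The windows of the late bins were nearly level at 6 h. The window of the 61.74 Mb bin had 16.7 and 17.2 CPM at T0, 18.2 and 16.9 at T6, then 22.8 and 22.0 at T48. That of the 62.04 Mb bin had 17.7 and 16.6, 16.8 and 16.1, and 27.7 and 24.8. Their T6 over T0 log2 ratios were 0.06 and -0.06. In these 2 windows the T48 libraries lay above the other 4, with log2 ratios of T48 over T0 of 0.41 and 0.62.

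The window of the 62.19 Mb bin had 17.2 and 24.1 CPM at T0, 19.2 and 20.1 at T6, then 28.7 and 25.7 at T48. Its T48 over T0 log2 ratio was 0.74 within replicate 1 and 0.09 within replicate 2. Over the 26 windows the T48 over T0 log2 ratio ran from -0.06 to 0.62 with a median of 0.10, and 24 of 26 were above 0. The median over all windows of the genome was 0.004.

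**Figure D4:**
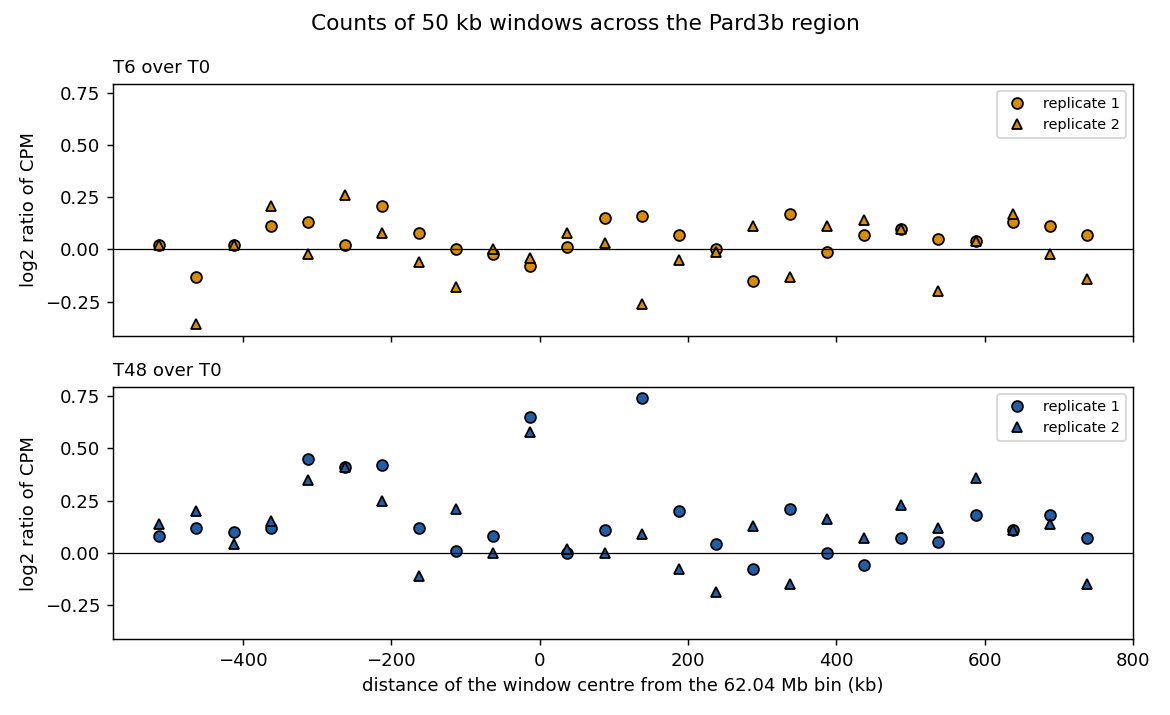
Log2 ratios of CPM of the 26 windows of 50 kb for T6 over T0 (top) and T48 over T0 (bottom), by distance of the window centre from the 62.04 Mb bin in kb, with each T6 or T48 library set against the T0 library of the same number. At T6 the points scatter around 0, and at T48 the window of the 62.04 Mb bin is high in both replicates while that of the 62.19 Mb bin is high in replicate 1 alone.

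The windows were also summed without the late bins. Without pairs that touch a late bin, the window of the 61.74 Mb bin had log2 ratios of T48 over T0 of 0.02 and 0.03 within replicates 1 and 2, against 0.48 and 0.36 with all pairs on the same scale. The window of the 62.04 Mb bin had 0.23 and 0.19, against 0.67 and 0.59. The window of the 62.19 Mb bin had 0.32 and 0.24, against 0.76 and 0.10, so there the replicate 2 value was higher without the late bin. The window that starts at 61.80 Mb holds no late bin and had 0.45 and 0.26 either way, with 14.7 and 15.2 CPM at T0, 16.9 and 16.0 at T6, then 19.7 and 18.1 at T48. This window contains the 61.82 Mb bin, which went from 21 interactions at T0 to 12 at T6 and 36 at T48, the most at T48 among bins that were neither late nor constant.

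The region's share of all listed read pairs was 0.0501% and 0.0515% at T0, 0.0503% and 0.0501% at T6, then 0.0666% and 0.0679% at T48. Among pairs listed throughout, the shares were 0.0550% and 0.0556% at T0, 0.0573% and 0.0564% at T6, then 0.0624% and 0.0625% at T48. Leaving out pairs of late bins they were 0.0534% and 0.0533%, 0.0557% and 0.0550%, and 0.0579% and 0.0589%. On both scales the T48 libraries lay above the T6 and T0 libraries. Among pairs listed throughout, the only scale summed without the late bins, they still did, by less. On that scale the T6 libraries also lay above the T0 libraries, with and without the late bins.

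Most pairs of the region were listed at 1 time point. There were 485 pairs at T0 alone (20.2%, against 24.7% in the genome), 332 at T6 alone (13.8% against 19.1%) and 900 at T48 alone (37.5% against 24.5%). The pairs listed throughout numbered 324 (13.5% against 14.9%), at a median distance of 10 kb, and 73 of them spanned at least 100 kb. Of the 598 T0 pairs of at least 100 kb, 20.7% were listed again at T6 (95% Wilson interval 17.7 to 24.2%) and 29.8% at T48 (26.2 to 33.6%). On chromosome 1 these shares were 33.4% and 30.1%, and over all chromosomes 21.5% and 21.3%. Intervals cover counting error only.

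Longer pairs made up more of the T48 list. The T0 list of the region had 225 pairs that spanned 500 kb or more (21.3%), the T6 list 159 (18.8%) and the T48 list 419 (27.8%). In the genome the shares were 11.6%, 11.4% and 15.2%. Under 20 kb the region listed 1.00 times as many pairs at T48 as at T0, between 20 and 100 kb 1.32 times, between 100 and 500 kb 1.55 times and from 500 kb 1.86 times. Without the late bins these became 0.986, 0.961, 1.17 and 1.44 times, against 1.01, 0.824, 0.921 and 1.25 times over all chromosomes.

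Several of the strongest long pairs listed throughout touched a constant bin, and others did not. The 62.53 and 62.69 Mb bins, 160 kb apart, had 32 and 21 read pairs at T0, 35 and 18 at T6, then 26 and 14 at T48. The 62.53 Mb bin and a bin 210 kb above it had 22 and 12, 13 and 12, and 16 and 8. A pair of 250 kb with its lower bin at 62.76 Mb had 14 and 12, 11 and 4, and 5 and 4. The 61.43 and 61.82 Mb bins, 385 kb apart, had 14 and 8, 14 and 5, and 21 and 5, and formed the strongest such pair at the other end of the region.

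Other bins of the region differed between time points by smaller numbers. A run of 7 adjacent bins at chr1:62735001-62770000, beyond the constant bins, had 12 to 23 interactions per bin at T0, 9 to 21 at T6 and 18 to 35 at T48. All 7 were listed with the 62.04 Mb bin at T48, so their T48 numbers include pairs of a late bin. The next largest gains of T48 over T0 after the late bins were in bins at 61.80 Mb (2, 7 and 13 in time order) and 61.93 Mb (4, 4 and 17). The latter is the bin described above in which T48 replicate 2 stood apart. The largest losses were in bins at 61.89 Mb (11, 6 and 4) and 62.64 Mb (14, 8 and 6). In T6 over T0 the largest gain was in the 61.80 Mb bin, with a log2 ratio of 1.83, and the largest loss in the 61.95 Mb bin (11, 1 and 20), with -2.70. Of the 137 bins of the region that had at least 20 interactions in the 3 lists together, 84 had more at T48 than at T0 and 38 fewer, whereas 31 had more at T6 than at T0 and 91 fewer. As shares, 61.3% had more and 27.7% fewer at T48, against 34.9% and 55.3% of the 262,315 such bins of the genome. At T6 the shares were 22.6% and 66.4%, against 23.8% and 66.3%, near the genome's. These numbers are not scaled to the length of the lists. The listed pairs of the late bins, 26 at T0 and 325 at T48, also count in their partner bins. Part of the region's shares at T48 may thus come from them, and the shares were not counted without those pairs.

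Outside the region, the bins with the most similar numbers over the 3 time points were found by Euclidean distance of log2 (interactions + 0.5). The nearest to the 61.74 Mb bin was a bin centred on 99997500 of chromosome 6, with 9, 4 and 92 interactions in time order (distance 0.67). The nearest to the 62.04 Mb bin was a bin at 19.84 Mb of chromosome 1, with 8, 6 and 108 (distance 0.33). The chromosome 6 bin was also the nearest to the 62.19 Mb bin (distance 0.28). These distances rest on 3 values each, with no replicate error.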

How the data were processed

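Hi-C was done on P19 cells before and during ATRA treatment, and groups and replicate numbers were taken from the sample titles. Per the labels' protocols, fixed chromatin was digested, its ends were labelled with biotin and ligated, and junction fragments were pulled down and amplified. CASAVA 1.8.2, Bowtie2 and the mm9 build are named in the submitters' processing notes. The restriction enzyme, the interaction caller, its threshold and any coverage correction are not given in the sources used here. Raw counts of read pairs per pair of 5 kb bins are what the authors deposited, 6 columns in 1 table, per the file headers. Both replicates of a time point were always above 0 together, and the lowest count above 0 was 3. The listed sums are not the sequencing depth, and read pairs carry no molecular identifiers.

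The members and lists were chosen with earlier results of these data known. Numbers of interactions per bin were counted per time point. Bins were named where they were in the rule, or were among the 5 largest gains or losses with at least 20 interactions. Named pairs were the 5 with the highest multiple of the lowest listed count at T48 per late bin, the 5 such of at least 100 kb at T0 among those listed throughout, and the 5 with the lowest T6 over T0 p. Named windows were the highest, the lowest and those of the late bins. Constant bins, the 62.19 Mb bin's library values, single 5 kb bins and T48 bin counts were added after the data were seen. Counts of pairs listed throughout were tested per pair, per 50 kb window (each pair once per window) and per bin with edgeR 4.0.16 in R 4.3.3. All 6 libraries entered 1 fit with TMM factors, filterByExpr and the quasi-likelihood F test, two-sided, with Benjamini-Hochberg adjustment over the genome at 0.05. The fits were tested on simulated data. Alternatives were DESeq2 1.42.0, its size factors in edgeR, no filter, a replicate block, leaving out each library, other window sizes and stricter lists. With 2 libraries against 2, an exact permutation test cannot go below p = 0.333, so none was used. The planned list of polarity genes, gene features of the bins and DNA sequence were not analysed here, since no mm9 annotation or genome was used.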

Additional observations from a re-analysis of the deposited data

Results flagged for a closer look

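The window that starts at 61.55 Mb lies near the lower edge of the region. It lay below its T0 level at 6 h and above it at 48 h in every library. Its T0 libraries had 7.30 and 7.15 CPM, its T6 libraries 6.65 and 5.55, and its T48 libraries 7.92 and 8.21. Both T6 libraries lay below both T0 libraries and both T48 libraries above them, and the log2 ratio of T48 over T6 was 0.39. The difference between the 2 changes was not tested. This window had the lowest T6 over T0 log2 ratio of the 26 windows, -0.24 (edgeR unadjusted p = 0.149). Its low T6 values and its T48 over T6 ratio partly follow from that place.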

How the results depend on the processing

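The 0 calls in T6 over T0 for interactions and for windows of the region were also obtained with DESeq2, with DESeq2 size factors, without a filter, without any 1 library, in windows of 25 and 100 kb, with pairs of at least 15 kb, with pairs counted once per bin, and in single 5 kb bins. With the replicate block there were 0 calls too (lowest adjusted p in windows 0.871). In the genome, window calls in that contrast were 0 with edgeR, 16 with DESeq2 and 12 with the replicate block. The labels do not say that replicate numbers pair the samples, and replicate differences of 2 time points correlated at 0.379, 0.323 and 0.32. The T48 over T0 log2 ratio of the bin counts was 1.43, 1.28 and 0.76 with the replicate block for the 61.74, 62.04 and 62.19 Mb bins, against 1.42, 1.28 and 0.68. Leaving out each library gave 1.27 to 1.55, 1.16 to 1.37 and 0.10 to 1.43. The T6 over T0 log2 ratio of the 62.19 Mb window turned from -0.06 to 0.19 without T0 replicate 2, and leaving out each library gave -0.30 to 0.19.

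T48 interactions as a percent of T0 and T48 interactions together were 94.4% for the 61.74 Mb bin, and 100% at 1.5 and at 2 times the lowest listed count and 98.6% from 100 kb. For the 62.04 Mb bin 93.6% became 97.8%, 100% and 98.2%. For the region 58.8% became 65.1%, 65.5% and 62.5%, and 61.4% from 20 kb. For the 62.19 Mb bin 89.6% became 93.3%, 92.9% and 92.1%. With the neighbouring bins counted in, the 3 late bins gave lower values of 88.9%, 89.5% and 86.6%. T48 held more than T0 in each. The region and its late bins were chosen on such numbers, so this is a description. Few reads per pair limit single pairs to large differences.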
